A study of Canis rufus and Canis latrans with 56 samples.

Results

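The genes described here encode the nuclear subunits of respiratory complexes II to V together with cytochrome c. They were chosen by symbol in the probe annotation: SDHA to SDHD, CYC1, CYCS, and symbols beginning UQCR, COX4 to COX8, ATP5F1, ATP5M or ATP5P, older ATP5 names included. The choice went by symbol and not by level, though it was made with earlier results of these data known. It gave 46 of the 16121 named genes on the array, each on 1 probe: 3 of complex II, 9 of complex III with cytochrome c, 17 of complex IV and 17 of complex V.

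RNA came from whole blood of 13 red wolves (Canis rufus) and 1 free-ranging female coyote, kept in RNAlater. According to the series' design text, 6 wolves were captive and 7 free-ranging, a contrast that the study's title names. Holding status and sex are not given wolf by wolf in the labels used here. Of the wolves, only 11136, 111080 and 11310 carry a remark on sampling in the wild. The wolves were therefore treated as 1 group and are called by their label numbers. Each animal's labelled RNA was put on 4 Illumina bead arrays with 24354 probes for human transcripts, on 4 of 7 slides.

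The mitochondrial respiratory chain passes electrons from food molecules to oxygen and uses the energy to pump protons across the inner membrane. Complex II feeds electrons from succinate into the chain, complex III hands them to the small carrier cytochrome c, and complex IV passes them to oxygen. Complex V, the ATP synthase, lets the protons flow back through a ring of c subunits and makes ATP in its catalytic head. In blood, white cells and platelets carry mitochondria, whereas red cells lose theirs as they mature.

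Levels are given on a log2 scale with 0 at each array's mean intensity, so 1 unit is a 2-fold step in intensity. The arrays differed in signal range: their 95th percentile lay between 0.332 and 1.24, and by animal its mean was lowest in wolf 11136 (0.381) and highest in wolf 111080 (0.866). Human probes were hybridised with canid RNA, so levels of different probes are not comparable and a dim probe does not show that a gene is silent. A bound for background was taken from 45 measured genes of liver and skeletal muscle, of which HPX was the brightest at 0.396. Of all probes, 2064 lay above it, with 1597 named genes.

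Of the 46 subunit genes, 9 had a mean over the 14 animals above the bound and 37 did not. They were UQCRB and UQCRC1 of complex III, COX6A1 and COX8A of complex IV, and ATP5F1A, ATP5F1B, ATP5F1C, ATP5MC3 and ATP5PD of complex V. None of the 3 measured genes of complex II was above it. ATP5F1C was the nearest above, at 0.52, with 7 of 13 wolves over the bound; SDHA at 0.33, COX6A2 at 0.30 and COX6C at 0.25 were the nearest under it. The 5 complex V genes cover the head of the enzyme (the alpha, beta and gamma subunits ATP5F1A, ATP5F1B and ATP5F1C), the c ring (ATP5MC3) and the peripheral stalk (ATP5PD). The head subunits ATP5F1D and ATP5F1E, at -0.29 and -0.28 on average over wolves, lay under the bound.

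**Figure D1:**
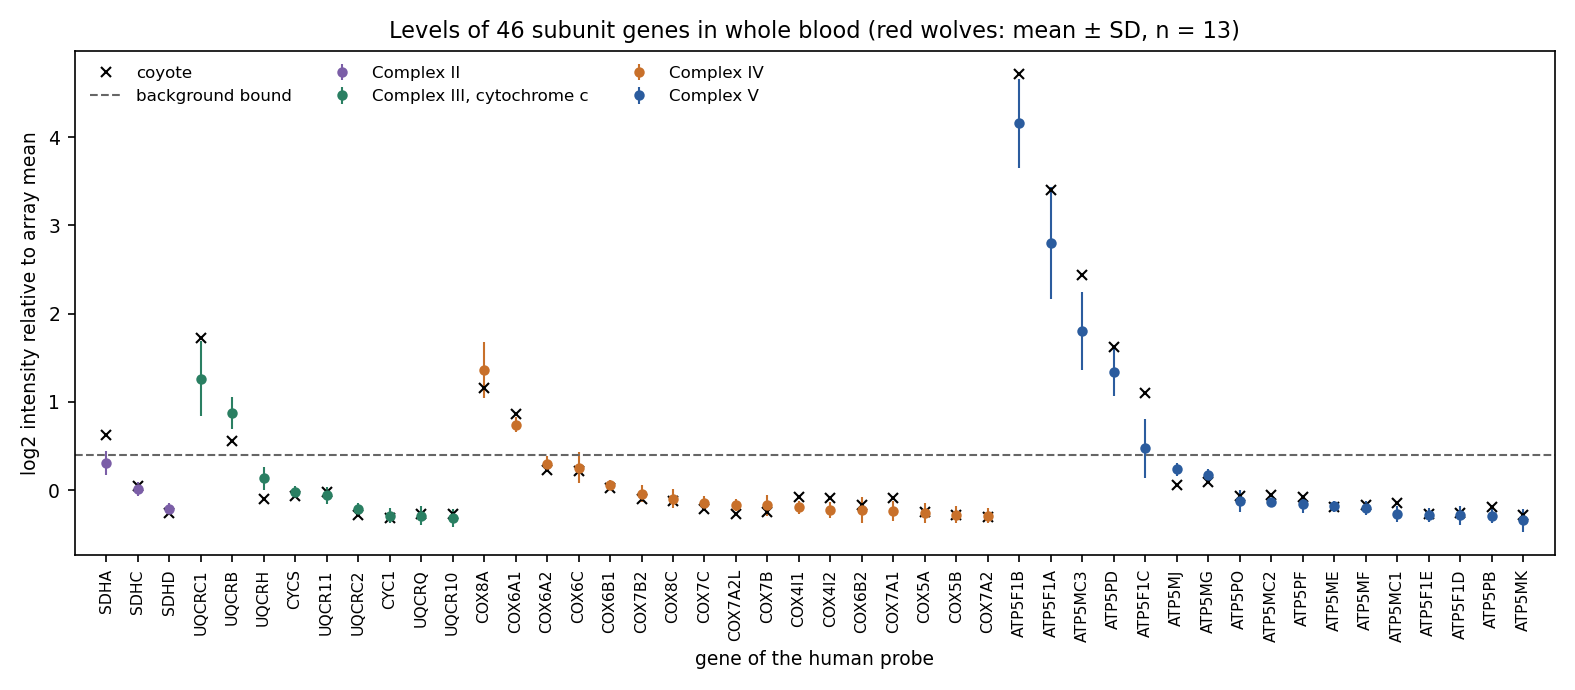
Level of each of the 46 subunit genes in log2 units around the array mean, as mean ± SD over 13 red wolves (dots, coloured by complex) and in the coyote (crosses), sorted within complex; levels of different probes are not comparable. The dashed line is the background bound of 0.396, with 9 genes above it and 37 under it.

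The first comparison asked which subunit genes differed among the wolves by more than their repeated arrays. From the lowest to the highest wolf, levels spanned 3.63-fold for ATP5F1A, 2.97-fold for ATP5F1B and 2.84-fold for ATP5MC3 of complex V, 2.36-fold for COX8A of complex IV and 2.30-fold for UQCRC1 of complex III. In limma's F test across all probes, 10 of the 46 subunit genes passed an adjusted p of 0.05 (21.7%), against 11.2% of all probes. Among those above the bound it was 8 of 9 (88.9%), against 78.1% of all probes above it. The median share of variance lying between wolves was 0.543 over the 9 genes and 0.539 over the 1597 named genes above the bound; the median SD was 0.332 and 0.246. Most bright probes thus differed among wolves, and these counts set nothing apart for the respiratory genes. The 4 arrays of a wolf share 1 labelled RNA, so these p-values measure animals against technical spread, and in whole blood fewer cells of a type and less RNA per cell cannot be told apart.

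In complex V, ATP5F1A, the alpha subunit of the catalytic head, had its lowest value of 1.97 in wolf 11273, a median of 2.71, and its highest of 3.83 in wolf 111080. The mean was 2.80 ± 0.63 (SD, n = 13 wolves) against an SD of 0.21 between arrays, with a limma adjusted p of 1.55e-19. The wolves fell in a low stretch, 6 between 1.97 and 2.46, and a high one, 5 between 3.34 and 3.83, with wolves 11136 (2.71) and 10537 (2.97) in between. ATP5F1B, the beta subunit that carries the catalytic sites, ran from 3.36 in wolf 10632 through a median of 4.30 to 4.93 in wolf 111080. Its SD was 0.50 against 0.20 between arrays (limma adjusted p 8.98e-15). Wolf 111080 stood at the top for both head subunits; after quantile normalization, which makes the arrays' spread equal, it did so for ATP5F1A and wolf 11136 for ATP5F1B.

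ATP5F1C, the gamma subunit that turns inside the head, ran from 0.03 in wolf 11274 through a median of 0.44 to 1.09 in wolf 11206, a 2.08-fold span (limma adjusted p 1.24e-05). Its array SD of 0.32 was close to its SD over wolves, 0.33, so single wolves are less well placed than for the other head subunits. ATP5MC3, which encodes the c subunit of the rotor ring, ran from 1.05 in wolf 11273 through 1.83 to 2.56 in wolf 11206 (limma adjusted p 1.16e-14). The other genes for the same mature c subunit, ATP5MC1 and ATP5MC2, had means of -0.27 and -0.14, under the bound, and did not pass the test. ATP5PD, the d subunit of the peripheral stalk, ran from 0.96 in wolf 11273 through 1.26 to 1.76 in wolf 11105, a 1.75-fold span. It passed with slide as a fixed term (limma adjusted p 1.63e-05), not with slide as a random block (0.123) or left out (0.411). The other 12 complex V genes lay under the bound, with means from -0.34 (ATP5MK) to 0.24 (ATP5MJ), and 0 of them passed.

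In complex III, UQCRC1, a core subunit on the matrix side, ran from 0.72 in wolf 11136 through a median of 1.06 to 1.92 in wolf 11105. The SD of 0.42 was 2.39 times that between arrays (limma adjusted p 2.17e-15). Of the wolves, 6 lay between 1.33 and 1.92, and the other 7 between 0.72 and 1.06. UQCRB, a small subunit that helps to form the ubiquinone site, ran from 0.44 in wolf 11136 through 0.92 to 1.08 in wolf 11148 (limma adjusted p 0.00114). That call rested on wolf 11136: without it the adjusted p was 0.230, and the next lowest wolf, 11310, had 0.65. The other 7 genes, among them CYC1 and CYCS for cytochromes c1 and c, had means over wolves from -0.32 (UQCR10) to 0.14 (UQCRH), all under the bound, and 0 of them passed.

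In complex IV, COX8A, the widely expressed isoform of a small membrane subunit, ran from 0.54 in wolf 11136 through 1.37 to 1.78 in wolf 11105 (limma adjusted p 1.25e-06). The other 12 wolves lay at 1.13 or higher. With no slide term its adjusted p was 0.0671. COX6A1, the widely expressed form of subunit VIa, was the flattest gene above the bound: 0.62 in wolf 10537, a median of 0.75, and 0.92 in wolf 11105. It did not pass (limma adjusted p 0.798), except after quantile normalization (0.0149). Its SD over wolves, 0.08, was lower than its array SD of 0.20, and only 0.689% of named genes above the bound had a lower SD.

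Both complex IV genes that passed under the bound depended on wolf 11136. COX6C, a nuclear-encoded membrane subunit, ran from -0.21 in that wolf through 0.27 to 0.49 in wolf 111080 (limma adjusted p 0.000393, and 0.376 without that wolf). COX6B2, the testis isoform of subunit VIb, was highest there at 0.06 and lowest in wolf 11148 at -0.42 (0.0252, and 0.266 without wolf 11136). The remaining isoforms lay under the bound and did not pass. The means over wolves were -0.19 for COX4I1 and -0.22 for COX4I2, whose proteins are alternatives in the same position. The muscle forms COX6A2 and COX7A1 stood at 0.30 and -0.23, and the widely expressed COX6B1, COX7A2 and COX7B at 0.06, -0.29 and -0.17. COX7B2 stood at -0.04 and COX8C at -0.10.

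In complex II, SDHA, the flavin-carrying subunit that oxidises succinate, ran from 0.10 in wolf 11275 to 0.53 in wolf 111080, with 3 of 13 wolves over the bound. The membrane anchors SDHC and SDHD had means of 0.01 and -0.21. None of these passed the test among wolves.

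**Figure D2:**
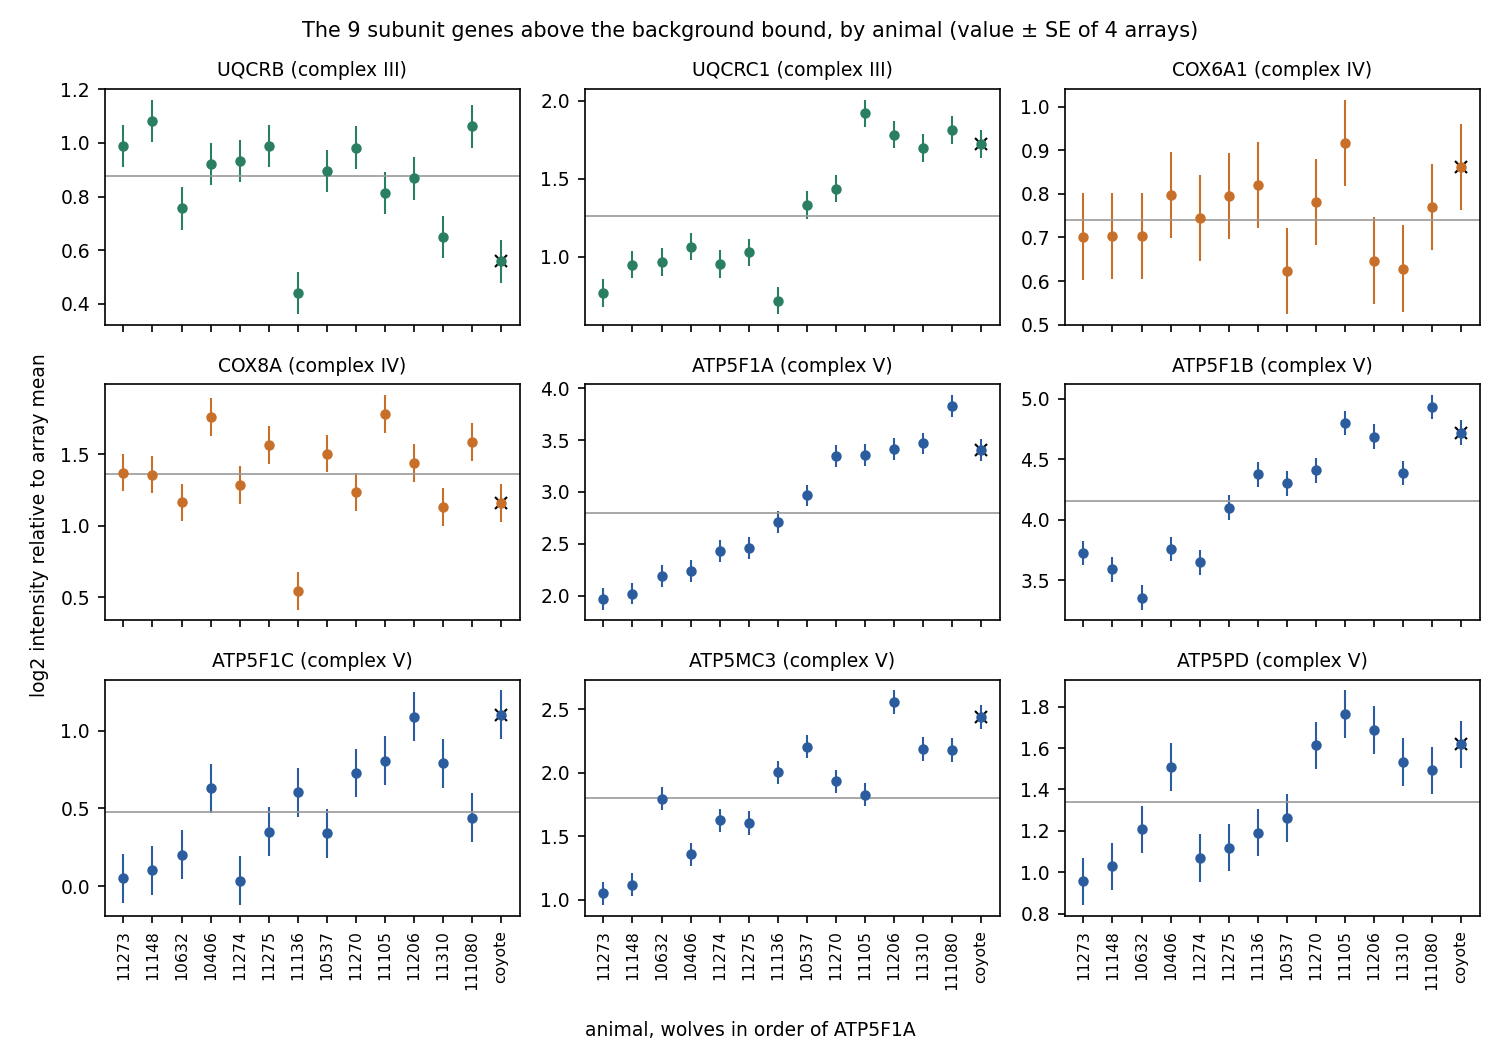
Level of the 9 subunit genes above the background bound in each animal (log2 intensity relative to the array mean, dots ± SE of 4 arrays), with wolves ordered by ATP5F1A, the coyote (cross) last, and the wolves' mean as a grey line. The complex V genes and UQCRC1 lie under the wolves' mean in wolves 11273 and 11148 and over it in wolves 11105 and 11206; UQCRB, UQCRC1 and COX8A are lowest in wolf 11136.

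Seen by animal, all 5 complex V genes above the bound lay over the wolves' mean in wolves 11105, 11206, 11270 and 11310, and all 5 lay under it in wolves 10632, 11148, 11273, 11274 and 11275. The median deviation from the wolves' mean over the 5 genes was highest in wolf 11206 (0.62), followed by wolves 11105 (0.42), 111080 (0.38) and 11310 (0.32). It was lowest in wolf 11148 (-0.57), followed by wolves 11273 (-0.43) and 10406 (-0.40). The same median over all 1597 named genes above the bound was 0.13 in wolf 11206 and -0.11 in both wolf 11148 and wolf 11310. Wolf 11136 was lowest for 3 of the 9 genes (33.3%), against 38.9% of the named genes above the bound. Wolf 11105 was highest for 4 of 9 (44.4%), against 15.1%, but for 0 of 9 after quantile normalization. In wolf 11136, complexes III and IV lay under the wolves' mean (median deviations of -0.49 and -0.37 over 2 genes each) and complex V slightly over it (0.13). That wolf had the narrowest signal range, and its place turned with the scaling. After quantile normalization it was lowest for 1 of the 9 genes (COX8A) and highest for 4, and its median deviation over the 9 genes went from -0.09 to 0.47. Its complex V deviation was then the highest of the wolves, at 0.53, against 0.25 for wolf 11206 and 0.32 for wolf 11310.

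The subunit genes were then compared with each other over the 13 wolves. The 5 complex V genes varied together, and UQCRC1 with them, while no pair of UQCRB, COX8A or COX6A1 with a complex V gene had an adjusted p under 0.05. COX6A1 did not pass the test among wolves, so its order is not measured. The 10 pairs within complex V had Pearson r between 0.62 and 0.92, with a median of 0.719 and a median Spearman rho of 0.75. For the pair of head subunits ATP5F1A and ATP5F1B, r was 0.918 (permutation p 4e-05, adjusted over the 36 pairs computed 0.00144) and rho 0.907 (0.0001, adjusted 0.0018). Without wolves 111080 and 11310, farthest from the median of ATP5F1A, r was 0.911. ATP5F1C and ATP5PD had r 0.893 and rho 0.912, and r 0.879 without wolves 11206 and 11274. The loosest pair, ATP5MC3 and ATP5PD, had r 0.621 (permutation p 0.0240, adjusted 0.0540) and rho 0.637, and r fell to 0.398 without wolves 11273 and 11206.

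UQCRC1 had r between 0.664 and 0.888 with the 5 complex V genes, highest with ATP5F1A (rho 0.819, permutation p 0.00011, adjusted 0.0018; r 0.861 without wolves 11105 and 111080). UQCRB, of the same complex III, had r of 0.086 with UQCRC1 and between -0.389 and -0.123 with complex V. COX8A had r between -0.157 and 0.324 with complex V, and COX6A1 between -0.238 and 0.224. UQCRB and COX8A had r 0.690 (permutation p 0.0152, adjusted 0.0365) but rho 0.385 (0.196, adjusted 0.352). That relation rested on 2 wolves: without 11136 and 11310, r was 0.0006. Of the 36 pairs, 15 had an adjusted p under 0.05 for r and 12 for rho.

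Pairs of the same complex had a median r of 0.717 (12 pairs) and pairs of different complexes 0.111 (24 pairs); 10 of the 12 lie in complex V. Over all 1274410 pairs of named genes above the bound the median r was 0.328, so positive relations were common on these arrays. After quantile normalization that median was 0.037 and the median within complex V 0.588, with 10 of 10 pairs positive. UQCRC1 with complex V then had a median of 0.465 and UQCRB and COX8A medians of -0.667 and -0.641.

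**Figure D3:**
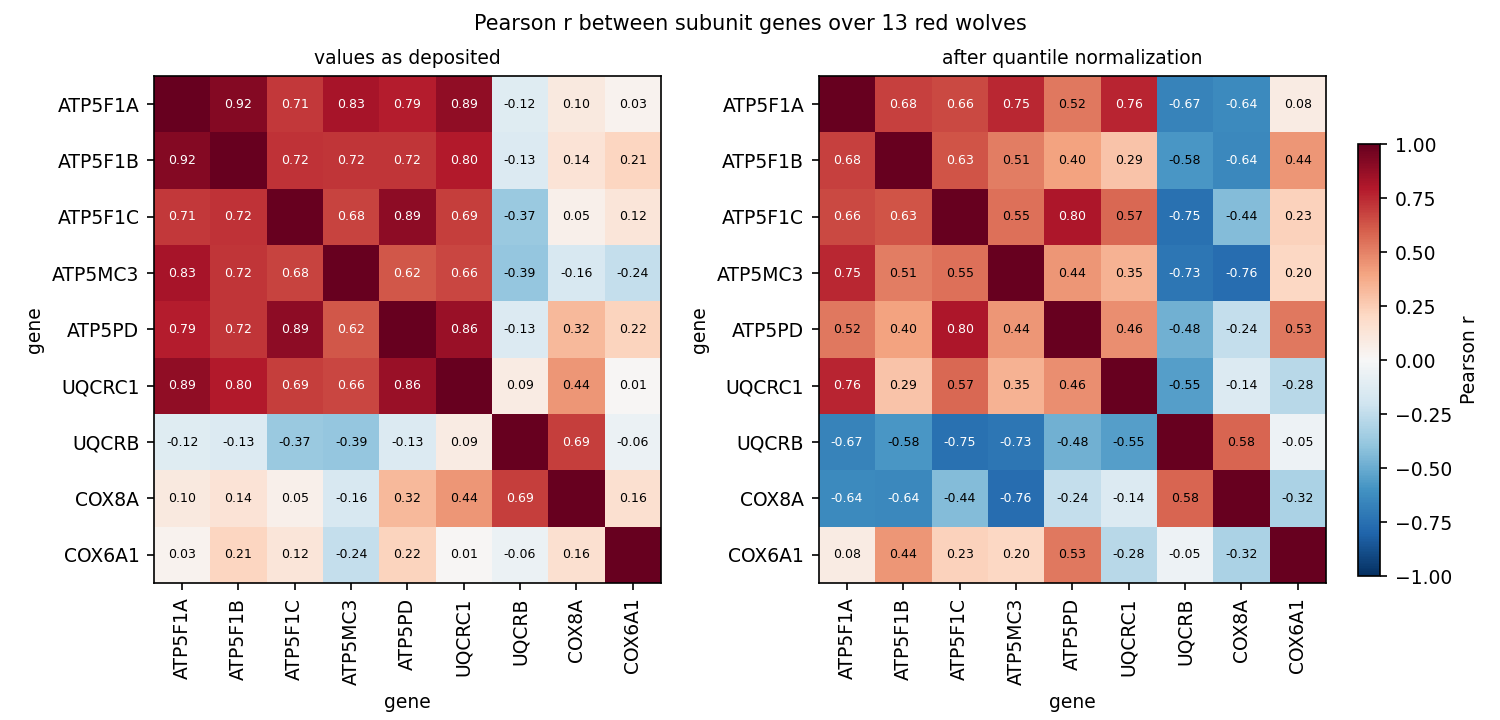
Pearson r over 13 wolves between each pair of the 9 subunit genes above the bound, from the deposited values (left) and after quantile normalization (right), on a colour scale from -1 to 1. The block of the 5 complex V genes is positive in both panels, whereas UQCRB and COX8A against complex V are more negative in the right panel.

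ATP5F1A was set against all 1596 other named genes above the bound to see which followed it most closely. The nearest were DYNC1I2, a dynein intermediate chain (r 0.982, rho 0.934 over 13 wolves), and DNAJA2, a co-chaperone (r 0.971, rho 0.934). ATP5F1B ranked 133, UQCRC1 225, ATP5MC3 365, ATP5PD 409 and ATP5F1C 494 by r, while COX8A ranked 809, COX6A1 854 and UQCRB 1000. The median r of all 1596 genes was 0.114. After quantile normalization that median was -0.351. The ranks were then 374 for ATP5F1B, 291 for UQCRC1, 305 for ATP5MC3, 461 for ATP5PD and 387 for ATP5F1C. COX8A ranked 1095, COX6A1 641 and UQCRB 1148. Many genes of other functions therefore tracked ATP5F1A as closely as its partner subunits did.

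**Figure D4:**
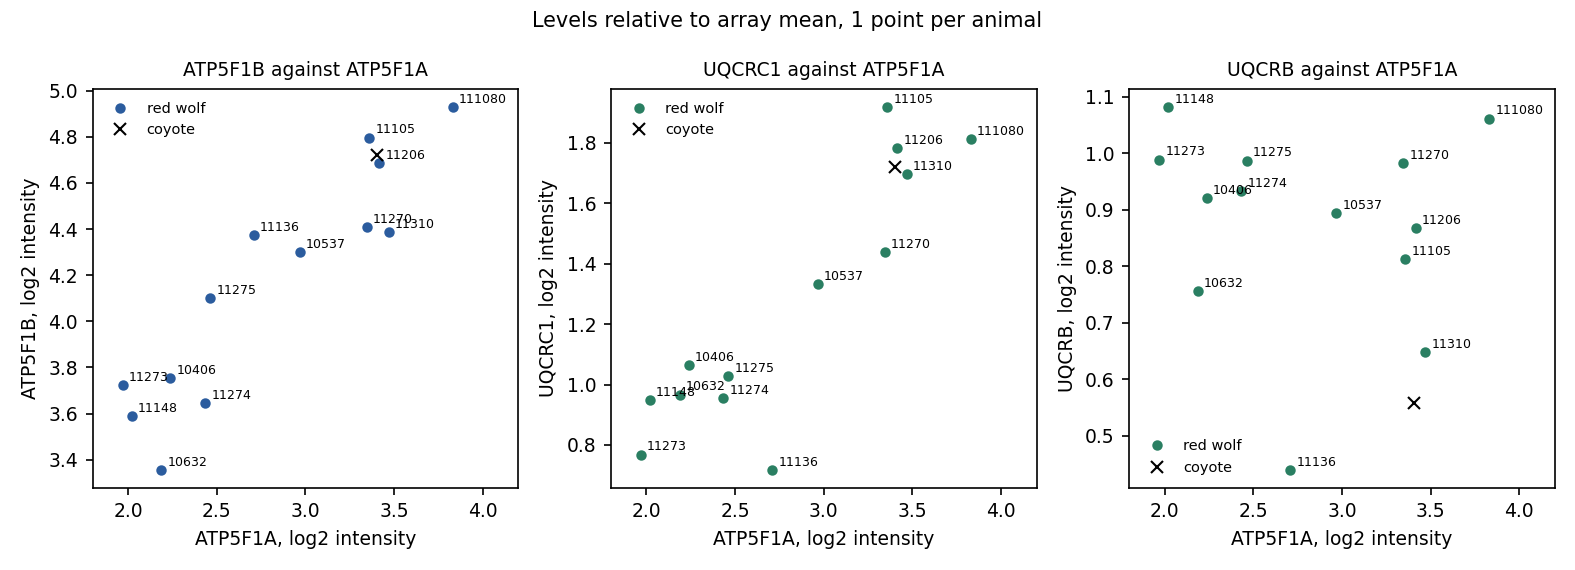
Levels of ATP5F1B, UQCRC1 and UQCRB against ATP5F1A, in log2 intensity relative to the array mean, with 1 labelled point per red wolf (n = 13) and a cross for the coyote. ATP5F1B and UQCRC1 climb with ATP5F1A (r 0.918 and 0.888), and UQCRB does not (r -0.12).

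Other mitochondrial genes went both ways against ATP5F1A. Of 35 measured complex I subunits, which pass electrons from NADH into the chain, 6 passed the test among wolves (17.1%, against 11.2% of all probes) and 5 lay above the bound, 3 of them with r over 0 to ATP5F1A. NDUFV2 (SD 0.73 over wolves) followed ATP5F1A with r 0.909, whereas NDUFV1 (SD 0.48) had r -0.323 and NDUFS3 (SD 0.38) r -0.554. After quantile normalization r was 0.879 for NDUFV2, -0.921 for NDUFV1 and -0.739 for NDUFS3. In the deposited values without wolves 111080 and 11310, r was 0.906 for NDUFV2, -0.188 for NDUFV1 and -0.328 for NDUFS3. Of 33 measured assembly factors of complexes II to V, 5 passed (15.2%). COX17, a copper chaperone for complex IV, had r 0.579 to ATP5F1A, and UQCC2, a complex III factor, r 0.927. SCO2, a copper protein of complex IV assembly, had r -0.439. Without wolves 111080 and 11310, r was 0.539 for COX17, 0.907 for UQCC2 and -0.253 for SCO2. In the citric acid cycle 4 of 15 passed (26.7%). SUCLG1, which encodes a subunit of the enzyme before succinate dehydrogenase, ran from 0.41 in wolf 11273 to 2.34 in wolf 11270, with r 0.947 to ATP5F1A. IDH3G, of isocitrate dehydrogenase, had r 0.736, and SUCLG2, a partner subunit of SUCLG1 under the bound, an SD of 0.40.

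Of 11 carriers, channels and inhibitors that serve ATP synthesis, 4 passed (36.4%). The phosphate carrier SLC25A3 had r 0.840 to ATP5F1A and the outer membrane channel VDAC2 r 0.937, whereas the related channel VDAC3 had r -0.386. ATP5IF1, which inhibits ATP hydrolysis by complex V, ran from 0.29 in wolf 111080 to 1.05 in wolf 11105, with r -0.555, which was -0.194 without wolves 111080 and 11310. Of 26 protein import genes 4 passed (15.4%), among them TIMM8B (r 0.871), TIMM23 (r 0.945) and, under the bound, TIMM8A (SD 0.14). Of 16 regulators of mitochondrial biogenesis 3 passed (18.8%): YY1 (r 0.887) and, under the bound, NFE2L2 (SD 0.18) and GABPB1 (SD 0.14). Of 11 genes for removal of mitochondria 2 passed (18.2%). Above the bound, where 78.1% of all probes passed, each of these lists had at most 5 genes. BNIP3L, a receptor for clearing mitochondria in maturing red cells, ran from 1.95 in wolf 11310 to 4.33 in wolf 11274 (r -0.384). GABARAPL2, an autophagosome protein, had r -0.227. Without wolves 111080 and 11310, r was -0.134 for BNIP3L and 0.029 for GABARAPL2. After quantile normalization, with all wolves, it was -0.666 for BNIP3L and -0.687 for GABARAPL2.

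Markers of blood cells were measured beside these genes. Of 18 red cell genes 7 were above the bound, and the list mean ran from 0.488 in wolf 11310 to 0.850 in wolf 11105 (0.620 in the coyote). The 7 genes had r between -0.626 and -0.027 with ATP5F1A, lowest for the delta-globin probe HBD. Without wolves 111080 and 11310, r was positive for the alpha-globin genes HBA1 (0.196) and HBA2 (0.115). After quantile normalization, with all 13 wolves, the 7 genes had r between -0.807 and -0.512. The median over all 1596 genes was then -0.351. White cell and platelet markers were mostly under the bound: 1 of 22 neutrophil genes was above it, 2 of 13 for monocytes, 3 of 18 for T cells, 2 of 15 for cytotoxic cells, 0 of 13 for B and plasma cells and 1 of 16 for platelets. The list means over wolves lay between -0.028 and 0.038 for neutrophils, -0.102 and 0.009 for monocytes, -0.017 and 0.075 for T cells, and 0.046 and 0.167 for platelets. For cytotoxic cells they lay between -0.011 and 0.082 and for B and plasma cells between -0.081 and 0.007. The probes of CD14, LYZ, CSF3R, S100A8, CD3E and MS4A1, which define white cell types, had means between -0.25 and 0.00. Of the white cell and platelet markers above the bound, r to ATP5F1A was 0.833 for FCER1G and 0.303 for TYROBP (monocytes), 0.359 for LCK, -0.123 for LEF1 and -0.377 for CD6 (T cells), -0.228 for GZMB and -0.056 for CTSW (cytotoxic cells), -0.039 for NCF1 (neutrophils) and -0.193 for PF4 (platelets). After quantile normalization r was 0.618 for FCER1G, 0.016 for TYROBP, 0.245 for LCK, -0.683 for LEF1 and -0.526 for CD6. It was then -0.637 for GZMB, -0.776 for CTSW, -0.627 for NCF1 and -0.808 for PF4. A more negative r on that scale was thus not particular to the red cell genes. The part of cell composition in the subunit genes' spread was not tested.

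The coyote was then set against the 13 wolves. It stood higher than the wolves' mean for UQCRC1, COX6A1 and all 5 complex V genes above the bound, and lower for UQCRB and COX8A, but none of the differences passed the test. ATP5MC3 was higher by 0.64 (SE 0.45), ATP5F1C by 0.63 (0.26), ATP5F1A by 0.60 (0.66), ATP5F1B by 0.56 (0.68), UQCRC1 by 0.46 (0.37) and ATP5PD by 0.28 (0.31). The difference was -0.32 (0.21) for UQCRB, -0.20 (0.33) for COX8A and 0.12 (0.17) for COX6A1. The limma adjusted p was 0.998 for each of these 9 genes; 0 of 46 subunit genes passed, against 0.00411% of all probes, which is 1 probe of 24354. Under the bound, the largest difference was 0.31 (SE 0.14) for SDHA. With a single coyote its own spread was taken to be that of the wolves.

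ATP5F1C, at 1.10 in the coyote, barely exceeded the highest wolf, 11206, at 1.09. It was 1 of 9 subunit genes above the bound (11.1%) over the range of all wolves, against 2.76% of all probes above the bound, and 0 of 9 lay below that range, against 4.02%. Of the 37 genes under the bound, SDHA (0.62 in the coyote, at most 0.53 in a wolf) and COX4I1 (-0.08, at most -0.10) lay over the wolves' range. UQCRH (-0.11 in the coyote, at least -0.08 in a wolf) and ATP5MJ (0.06, at least 0.12) lay below it. The share of all probes under the bound that lay outside the wolves' range was not taken, so nothing is read from these genes. The other complex V genes above the bound lay inside the wolves' range, ATP5F1A at 3.40, ATP5F1B at 4.72, ATP5MC3 at 2.44 and ATP5PD at 1.62, each near the high wolves. The median difference over the 9 genes was 0.458, against -0.072 over the 1597 named genes above the bound. After quantile normalization it was 0.193, against -0.048; the difference then was 0.34 for ATP5F1A, 0.19 for ATP5F1B and 0.16 for ATP5PD. On each of the 4 slides that carried the coyote, UQCRC1 and the 5 complex V genes were higher in the coyote than in the wolves of that slide, and UQCRB was lower. These slides hold the same labelled RNA of the coyote and are not independent animals.

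The only probe on the array that passed the coyote test was FCER1G, the shared gamma chain of immune receptors on myeloid cells, at 2.03 in the coyote against -0.19 to 0.82 in the wolves (limma adjusted p 0.00132). The monocyte list mean was 0.142 in the coyote and at most 0.009 in a wolf, a gap that rested on FCER1G: over the other 12 genes it was -0.015 in the coyote and at most -0.025 in a wolf. CD14, LYZ and CSF1R stood at -0.17, -0.14 and -0.08 in the coyote. The part of this list in the complex V values was not tested. Sequence differences between coyote, red wolf and the human probes were not tested either.

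**Figure D5:**
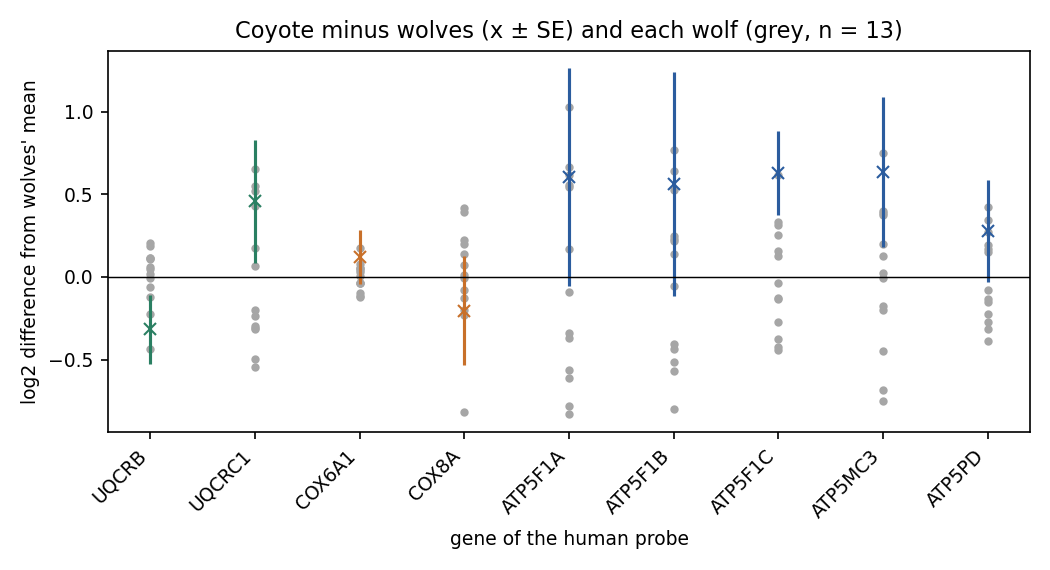
Coyote minus the wolves' mean (crosses ± SE from limma) for the 9 subunit genes above the bound, with each of the 13 wolves' own deviations in grey, in log2 units. The coyote lies inside the cloud of wolves for 8 genes and just above it for ATP5F1C.

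The slides differed as well. With the animal kept in the model, 7 of the 9 subunit genes above the bound (77.8%) differed between slides (limma adjusted p under 0.05). Of all probes above the bound, 84.0% did. Over all members the count was 13 of 46, but the share over all probes was not taken, so nothing is read from that count. Of the 9 genes above the bound, UQCRB and COX6A1 did not pass. UQCRB and COX6A1 did not pass. No animal had more than 1 array on a slide, so wolves cannot be tested within a slide, and slide was kept as a term in the model.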

How the data were processed

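Blood RNA of 13 red wolves and 1 coyote was hybridised to 56 arrays (4 per animal, technical). The submitters' processing notes name BeadStudio 1.5.0.34. The authors deposited log2 intensities centred per array, per the labels' design text on the median; in the table the mean of each array is 0. The sources used here do not say whether background was subtracted. Of 24354 probes, 18339 have 1 gene symbol and 6015 none.

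Animals and slides were taken from the labels. Differences were tested with limma (3.58.1, R 4.3.3; eBayes with intensity trend) and Benjamini-Hochberg adjustment over all probes at 0.05: an F test of the wolves with slide as a covariate, a fit of animal and slide giving 1 value per animal, and the coyote against the wolves' values. Correlations used these values with 100000 permutations. Genes were named where they passed a test or lay above the bound, plus isoform pairs and, of other lists, up to 3 passing genes with the largest SD; further ones, and the cell markers named, were picked with their values in view. Scripts were checked on simulated data. Alternatives covered normalization, centring, slide, position, dim probes and each wolf left out. The members and lists were chosen with earlier results of these data known. The number of arrays limits the precision.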

Additional observations from a re-analysis of the deposited data

How the results depend on the processing

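Of the subunit genes, 10 differed among wolves, and between 7 and 12 under the 21 alternatives: 7 without wolf 11136, 8 with no slide term, 11 after quantile normalization and 12 with position in the model. The 6 genes ATP5F1A, ATP5F1B, ATP5MC3, UQCRC1, ATP5F1C and COX8A passed under each, except COX8A with no slide term (0.0671). COX6B2 was also lost without slide (0.0861) and without wolves 10406 (0.0662) or 11148 (0.0613). No alternative gave a subunit gene that differed in the coyote, and none of the 6 largest coyote differences changed sign, though the one for ATP5F1B fell from 0.56 to 0.19 and that for ATP5F1A from 0.60 to 0.34 after quantile normalization. The count between slides, 13, was 7 with dim probes left out, since only 9 subunit genes then entered.

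The median share of variance between wolves over all 46 genes, 0.0841 (0.0652 over all probes), was 0.0687 with no slide term, 0.0530 after quantile normalization and 0.0640 to 0.09998 with each wolf left out. The median r over the 36 pairs, 0.274, lay between 0.165 and 0.395 with each wolf left out, and was -0.0181 when all 46 genes, mostly under the bound, entered the pairs. The median r within complex V, 0.719, a value whose alternatives were chosen after seeing the data, was 0.588 after quantile normalization and 0.681 to 0.819 with each wolf left out. The 95th percentile of the liver and muscle genes would put the bound at 0.342, and the same 9 subunit genes lay above it. No wolf is paired with the coyote, so no paired analysis was made. The slides that they share entered the model as a term. No detection p was used, so dim probes, 37 of 46 here, limit what can be said.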

Other observations

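A remark on sampling in the wild stands in the labels of wolves 11136, 111080 and 11310 and of the coyote. The design text counts 7 free-ranging wolves, so wolves without the remark cannot be taken as captive, and no group was formed. In these 3 wolves ATP5F1A stood at 2.71, 3.83 and 3.47, ATP5F1B at 4.37, 4.93 and 4.39, and ATP5MC3 at 2.01, 2.18 and 2.19. UQCRC1 stood at 0.72, 1.81 and 1.70, and COX8A at 0.54, 1.58 and 1.13.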
